A study of Mus musculus with 22 samples.

Results

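The cytosolic ribosomal protein genes are described here in primary motor cortex (M1) of mice with and without estrogen receptor beta. They were taken by symbol: Rpl or Rps followed by a number, with an optional a, x or l, together with Rplp0, Rplp1, Rplp2 and Rpsa, and without Rpl22. This gave 78 of the 15297 genes in the count table, 46 of the large and 32 of the small subunit, which hold 322 of its features. RNA was compared between 6 wild-type (WT) and 5 BERKO mice, and between the left and right M1 of each mouse, giving 22 biopsies. All mice were males of the C57BL/6 strain aged 16 to 20 weeks. The labels name no treatment, and the biopsies were taken by needle puncture. BERKO mice lack estrogen receptor beta, the receptor encoded by Esr2; their allele is not stated in the labels. Nothing in the labels describes a line, litter or cross beyond the shared C57BL/6 background. The submitters report that 6 BERKO mice entered and that 1 BERKO sample was taken out as an outlier; BERKO mouse 1 was not analysed here. A needle biopsy holds many cell types, so fewer cells of a type and less RNA per cell cannot be told apart in any value below.

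A ribosome is built of a small subunit, which holds the messenger RNA and reads its codons, and a large subunit, which joins amino acids and lets the growing protein leave through a tunnel. Each subunit is ribosomal RNA covered with proteins, nearly all of them present once per ribosome, so the cell needs their products in like amounts. Mammalian messengers for these proteins begin with a C in a run of C and T, the 5′ terminal oligopyrimidine tract, through which the kinase mTORC1 and the protein Larp1 control their translation. In neurons, ribosomal protein messengers are also found in axons and dendrites, where synthesis depends on growth factors and activity.

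Because the method counts the 5′ ends of transcripts, the start of each messenger is the part that was measured. The RefSeq table of gene starts (GRCm38.p6) matched 57 of the 78 genes. An unbroken run of at least 5 C or T from an annotated start on was found in 17 of the 57 (29.8%), against 5.28% of all 27025 genes in the table. A gene with several annotated starts counted if any of them matched. A C stood at the start in 35.1% against 18.9%. The 8 windows below were chosen to show such tracts, and the next 7 are starts of genes named in the comparisons, where the run is shorter or missing. Each window holds 30 bases, 10 before the annotated start and 20 from it on, and capitals mark the run of C and T that holds the start base.
Rps6 (chr4:86857348-86857377, minus strand): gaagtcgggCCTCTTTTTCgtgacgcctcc
Rps10 (chr17:27635225-27635254, minus strand): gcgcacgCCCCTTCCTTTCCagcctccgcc
Rps18 (chr17:33955646-33955675, minus strand): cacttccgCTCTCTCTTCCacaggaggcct
Rps27 (chr3:90213629-90213658, minus strand): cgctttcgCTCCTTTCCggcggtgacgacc
Rpl15 (chr14:18270967-18270996, minus strand): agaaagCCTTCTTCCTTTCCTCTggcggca
Rpl28 (chr7:4792955-4792984, plus strand): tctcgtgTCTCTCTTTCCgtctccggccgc
Rpl35 (chr2:39005112-39005141, minus strand): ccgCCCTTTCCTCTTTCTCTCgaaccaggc
Rplp2 (chr7:141447641-141447670, plus strand): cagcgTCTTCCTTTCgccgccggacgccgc
Rpsa (chr9:120127756-120127785, plus strand): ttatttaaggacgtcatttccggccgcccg
Rpl10 (chrX:74270806-74270835, plus strand): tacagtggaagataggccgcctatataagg
Rps12 (chr10:23787190-23787219, minus strand): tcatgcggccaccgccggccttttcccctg
Rpl31 (chr1:39367841-39367870, plus strand): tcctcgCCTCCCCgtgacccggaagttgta
Rps28 (chr17:33824543-33824572, minus strand): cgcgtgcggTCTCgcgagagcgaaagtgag
Rpl39 (chrX:37085203-37085232, minus strand): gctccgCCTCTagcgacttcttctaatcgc
Rpl37a (chr1:72711250-72711279, plus strand): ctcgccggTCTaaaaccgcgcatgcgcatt

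The 8 tracts vary in length and in the order of C and T, and several hold the letters CTTTCC or CTCTTT. On the transcript strand, within the 60 bases from 10 before the start, CTCTTT occurred in 29.8% of the 57 genes against 2.45% of all genes in the table, and CTTTCC in 28.1% against 3.04%. On the other strand neither occurred in the 57, against 2.54% and 3.30% of all genes in the table. Both motifs can lie within one tract and were counted apart. CCGGAAG, letters that factors of the ETS family are known to bind, was found on either strand of the 300 bases around the start in 42.1% of the genes against 9.93%. TATAAA, the usual TATA box letters, was found in 10.5% against 15.7%. The starts are annotated ones, not those measured, and the deposited positions are on mm9, so the 2 sets were not joined.

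The reads of these genes came from their starts. A feature in the deposited annotation is a region of 5′ ends, and the 5′ UTR class held 95.7% ± 0.470 of the genes' reads per biopsy (SD over 22 biopsies). The feature with the most reads lay in the 5′ UTR for 68 genes and upstream of the gene for 7 (Rpl4, Rpl29, Rplp1, Rps15a, Rps18, Rps19 and Rps25). Rps2, a protein of the entry channel for messenger RNA, was the gene with its leading feature in the coding sequence (chromosome 17, position 24858085, mm9), which held 81.2% of its reads. Many processed copies of ribosomal protein genes exist in the mouse genome. Of the 76 genes found in the GENCODE annotation, 74 share at least 100 bases at 95% identity or more with another annotated gene, with a median of 6 such genes and up to 61. The sources used here do not say how the authors' counting treated reads that match several copies, so every level and difference of these 74 genes is uncertain to that extent. Rps27l had no such copy.

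Gene reads per biopsy ranged from 239058 to 1893400, with means of 1265590 ± 388097 in WT right, 812563 ± 281710 in WT left, 797027 ± 123691 in BERKO right and 542816 ± 194079 in BERKO left biopsies (SD, n = 6, 6, 5 and 5). The share of endogenous reads in coding sequence and 3′ UTR features was 13.8% ± 2.33 in WT and 17.3% ± 1.97 in BERKO biopsies (SD, n = 12 and 10). On the first principal component of 5419 genes, 15.4% of the variance, the right and left biopsies of WT mouse 1 (-40.31 and -46.37) and the left biopsy of WT mouse 2 (-40.22) lay apart from the other 19, which ranged from -9.42 to 17.6. Markers of the cell types of cortex were all detected. The summed level of 4 neuron markers was 4369 to 7587 counts per 1000000 gene reads (CPM) per mouse, and 5 excitatory neuron markers summed to 1068 to 1856 CPM in WT and 1644 to 2427 in BERKO mice. The 6 microglia markers summed to 442 to 778 CPM in WT and 784 to 959 in BERKO mice, without overlap, and the 4 endothelial markers to 76.9 to 179 and 157 to 253. The 3 mural markers summed to 112 to 222 and 201 to 372 CPM. All tested markers of microglia (6), endothelium (3), mural cells (3), astrocytes (6) and oligodendrocytes (5) had a positive change in BERKO mice. So had 3 of 4 fibroblast markers, against 49.2% of all genes tested. The 5 inhibitory neuron markers were lower in BERKO mice for all 4 that were tested, none of them past the threshold, and summed to 821 to 1072 CPM in WT and 669 to 884 in BERKO mice. The mitochondrial share of endogenous reads was 1.67% ± 0.375 in WT and 0.821% ± 0.148 in BERKO biopsies (SD, n = 12 and 10). The first letter of the well code in the column names differs between the genotypes and between the sides, so position on the plate cannot be told apart from either. The part of these cell markers and read shares, of depth and of plate position in the values below was not tested.

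These 78 genes made up a large share of the cortical messengers. They held 6.04% to 9.02% of the gene reads of a biopsy, with 7.69% ± 0.758 in WT and 7.87% ± 0.447 in BERKO biopsies (SD, n = 12 and 10). CPM values are scaled by TMM, and those per mouse sum both sides. Since 1 transcript gives 1 5′ end, CPM was not divided by transcript length, and levels of different genes are compared on that scale. The mean over the 11 mice had a median of 782 CPM over the 77 genes with reads and was lowest for Rps15a, at 41.3 CPM. The middle part of the distribution, from the lower to the upper quartile, spanned 498 to 1329 CPM.

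Of the 78 genes, 9 stood at 2000 CPM or more and gave 33.4% of the summed level. Among them were Rpl37a (3131 CPM), Rpl6 (3094), Rpl41 (2826), Rpl21 (2766), Rps29 (2410), Rps14 (2133) and Rpl35a (2083). Rps14 is the small-subunit gene whose loss of 1 copy marks the human 5q- syndrome, and Rpl41 encodes a very short peptide. Another 20 genes lay from 1000 to 2000 CPM and gave 34.5%: Rpl8, Rpl35, Rps10, Rps4x, Rpl19, Rpl9, Rpl13a, Rplp2, Rpl31, Rps27a, Rps16, Rpl27a, Rps21, Rpl30, Rpl23, Rps7, Rpl23a, Rpl26, Rps26 and Rpl36. The 27 genes from 500 to 1000 CPM gave 25.4%. They include Rpl5, which binds the 5S ribosomal RNA, the small-subunit genes Rps6 and Rpsa, and the stalk genes Rplp0 and Rplp1. The 16 genes from 100 to 500 CPM, among them Rpl11, Rps27, Rps28, Rps15, Rpl7a, Rps25, Rpl29 and Rpl39, gave 6.21%. Rps4l, Rps19, Rps2, Rps27l and Rps15a lay below 100 CPM, and together with Rpl32l, which had no reads in its only feature, gave 0.416%.

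**Figure D1:**
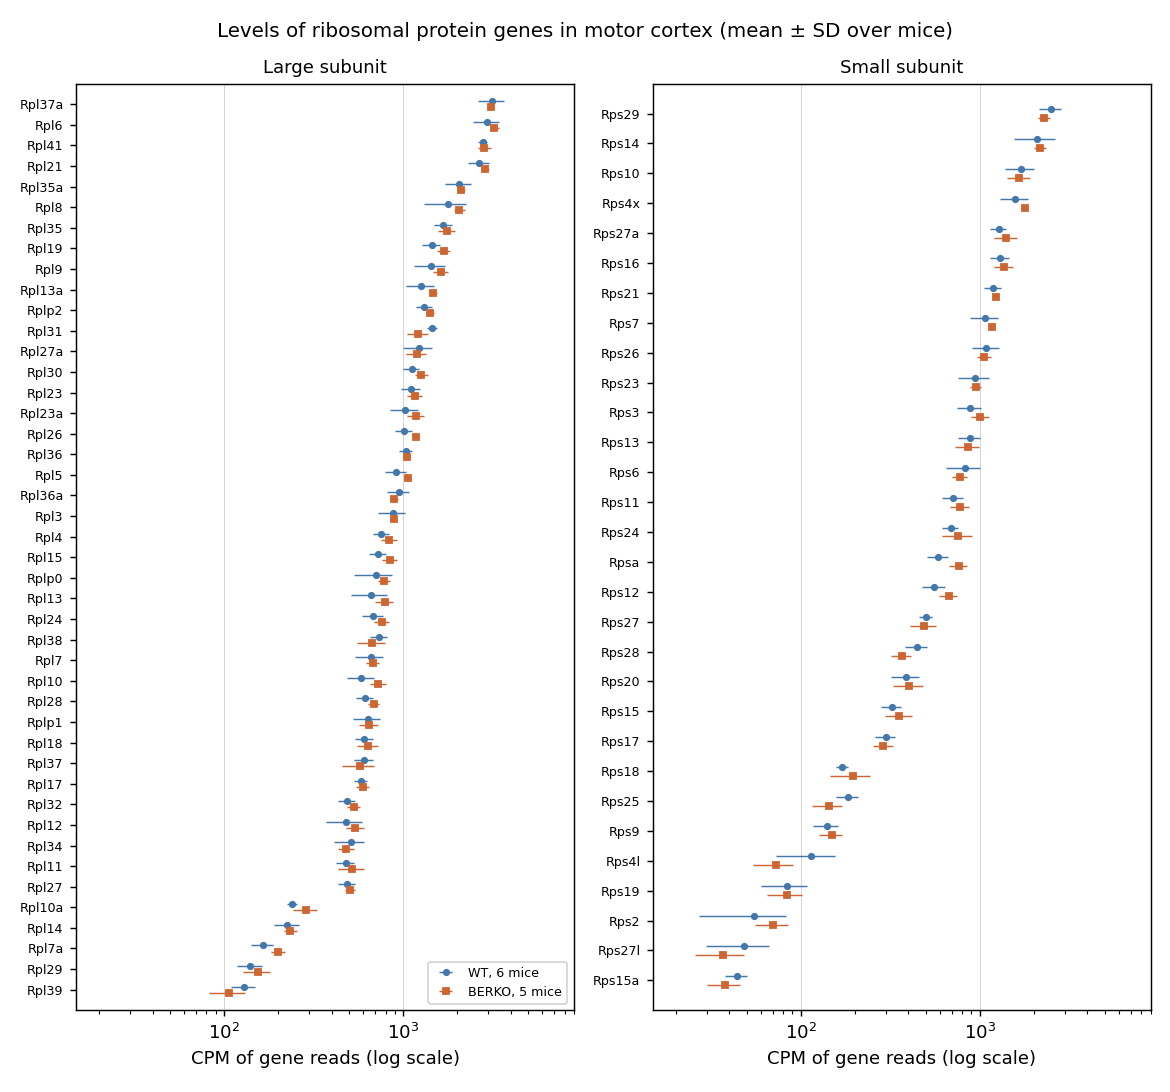
Mean CPM of gene reads (log scale) of the genes with reads that are reported here, large subunit left and small subunit right, with SD over 6 WT mice (circles) and 5 BERKO mice (squares). Rps15a, at 41.3 CPM, is lowest and Rpl37a, at 3131 CPM, is at the top of the large subunit, and the 2 genotypes lie close together for nearly every gene compared with the distance between genes.

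The 2 subunits had similar median levels, 795 CPM over 45 large-subunit and 731 over 32 small-subunit genes, but the small subunit was spread more widely. The lower and upper quartiles were 267 and 1140 CPM in the small and 592 and 1363 CPM in the large subunit, whose genes ranged from 119 (Rpl39) to 3131 (Rpl37a). The coefficient of variation over the 11 mice had a median of 12.5% for the large and 15.6% for the small subunit. It was lowest for Rpl36 (6.42%) and Rpl41 (6.87%) and highest for Rps4l (40.2%), Rps2 (37.6%) and Rps27l (37.1%), all 3 of which stood below 100 CPM. No test was made of the subunits against each other, since genes are not replicates.

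Summed over the large subunit, WT mice had 40183 (lowest), 48715 (median) and 53994 CPM (highest). BERKO mice 2 to 6 had 53046, 51024, 50958, 49644 and 49878 CPM. The BERKO sums all lay within the WT range and above the WT median, and the mean was 47858 ± 5449 in WT and 50910 ± 1346 in BERKO mice (SD, n = 6 and 5). Over the small subunit, the WT mice ranged from 23341 to 32632 CPM with a median of 28093, and the BERKO mice stood at 31268, 29821, 30661, 29068 and 29188. The means were 28058 ± 3575 and 30001 ± 949, again with all BERKO values inside the WT range. The ratio of large to small was 1.71 ± 0.0371 in WT and 1.70 ± 0.0205 in BERKO mice, so the 2 subunits kept nearly the same ratio in every mouse while their sums varied.

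Among WT mice, the order of the sums was the reverse of the order of depth. By summed level of both subunits, WT mouse 3 was lowest (63524 CPM), followed by mouse 1 (67716), mouse 5 (75788), mouse 4 (77826), mouse 2 (84018) and mouse 6 (86627). Their gene reads ran in exactly the opposite order, from 2722667 in mouse 3 and 2607778 in mouse 1 to 1353208 in mouse 6. BERKO mice did not follow it: mouse 5 had the fewest gene reads, 968219, and also the lowest sum, 78712. The part of depth in this order was not tested.

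**Figure D2:**
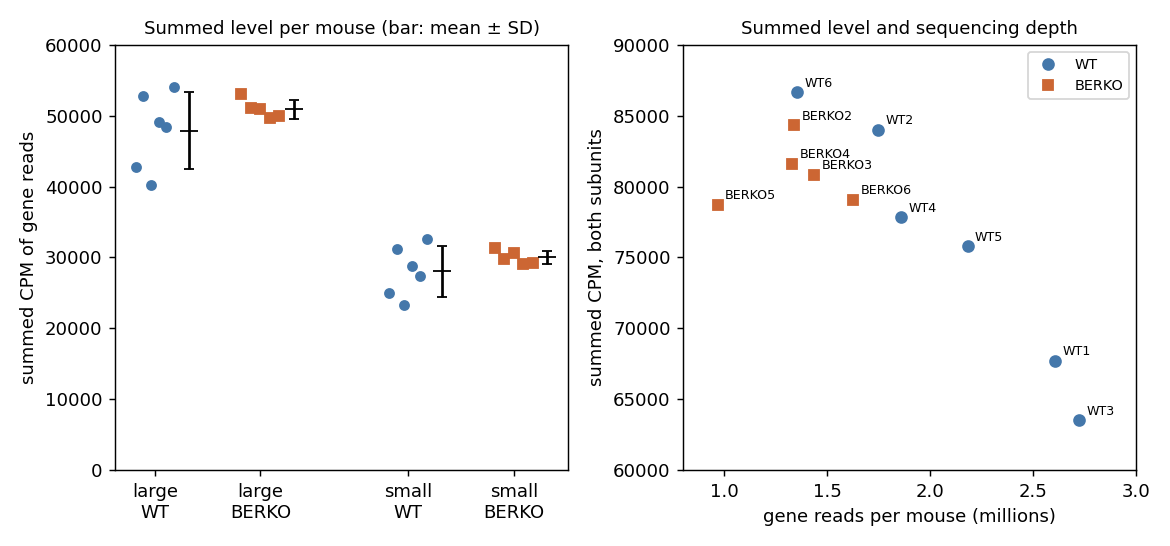
Left, summed CPM of large-subunit and small-subunit genes in each mouse (points), with the mean and SD of each genotype beside them; right, the sum of both subunits against gene reads per mouse. BERKO sums lie inside the WT range, and among WT mice the deepest library (mouse 3) has the lowest sum and the shallowest (mouse 6) the highest.

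The comparison of BERKO with WT asked whether motor cortex lacking estrogen receptor beta has other levels of these messengers. None of the 77 genes tested passed the threshold of 0.05 after Benjamini-Hochberg adjustment over all genes, where 0.0776% of the 9025 genes did. The smallest adjusted p among them was 0.314 in edgeR's quasi-likelihood test. At an unadjusted p under 0.05, 6 genes were higher in BERKO mice (background 5.27%) and 4 lower (background 4.64%). Spike-in scaling gave 28 higher (background 11.4%) and 0 lower (background 1.07%), and leaving out 1 WT mouse gave between 2 higher (without mouse 3, background 4.97%) and 16 higher (without mouse 6, background 5.52%). DESeq2 also called none of them, while it called 1.29% of 3489 genes. Before adjustment, at the same threshold, it had 9 of them higher (background 4.06%) and 4 lower (background 4.59%). The fitted changes ran from -0.66 to 0.38 on the log2 scale, with standard errors of 0.10 to 0.29. In no gene did the genotypes separate completely over the 11 mice, which happened for 1.33% of all genes tested.

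The fitted changes leaned to the positive side. The log2 change was above 0 for 56 of 77 genes, 37 of 45 in the large and 19 of 32 in the small subunit, against 49.2% of all genes. The median was 0.08, with 0.11 for the large and 0.06 for the small subunit, and -0.01 over all genes. Taken per mouse, the median deviation from the mean over all mice ran from -0.28 to 0.10 in WT and from 0.01 to 0.10 in BERKO mice. Its SD within the genotypes was 0.118, which is a spread of single mice and not the error of a difference between groups. Scaling to the spike-in RNA raised the median of all genes by 0.20 and that of the ribosomal protein genes to 0.32, with 70 of 77 above 0 (background 68.7%). Without the 3 WT biopsies that lay apart the median was 0.06, with 51 genes above 0, and with every mouse thinned to 968219 gene reads it was 0.08, with 54 above 0. All genes of a mouse share its library, so a shared sign in many of them is not many observations.

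Rpsa, first described as a laminin receptor and a protein of the small subunit needed for its last steps of maturation, had the smallest p of the genes higher in BERKO mice. Its leading feature is a 5′ UTR feature on the plus strand of chromosome 9 at 120036905 (mm9) with 89.8% of its reads. In WT mice it ranged from 479.8 to 669 CPM with a median of 608, and in BERKO mice 2 to 6 it stood at 878, 789, 787, 663 and 694. All BERKO mice but mouse 5 lay above every WT mouse. The means were 588 ± 80.5 and 762 ± 85.4 CPM (SD, n = 6 and 5), a log2 difference of 0.38 ± 0.13 (SE) that did not pass adjustment (edgeR adjusted p 0.314).

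Rpl10, one of the last proteins to join the large subunit, stood at 452 to 756 CPM in WT mice with a median of 562. BERKO mice had 782, 819, 698, 697 and 632 CPM, of which 2 lay above the WT range. The log2 difference was 0.31 ± 0.13 (adjusted p 0.429). Rps12, in the beak of the small subunit, had WT values of 454 to 679 CPM with a median of 549 and BERKO values of 802, 617, 671, 609.9 and 665. Only BERKO mouse 2 lay above the WT range, and the log2 difference was 0.27 ± 0.13 (adjusted p 0.482).

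Of the genes lower in BERKO mice, Rps4l had the largest fitted difference. It is named after Rps4 and is listed in the files as noncoding, with all its reads in a first-exon feature on chromosome 6 at 148303210 (mm9). WT mice ranged from 71.4 to 179 CPM with a median of 102, and BERKO mice stood at 66.99, 46.2, 72.02, 81.8 and 95.1. The values overlap, with 2 BERKO mice below every WT mouse. The highest WT values were those of mouse 1 and mouse 2, which hold the 3 biopsies that lay apart. The log2 difference was -0.66 ± 0.23 (adjusted p 0.342), and -0.24 without those 3 biopsies.

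Rpl31, a large-subunit protein at the rim of the exit tunnel, separated the genotypes more evenly. WT mice ranged from 1328 to 1572 CPM around a median of 1476, and BERKO mice had 1405, 981, 1117, 1316 and 1264, of which 4 lay below every WT mouse. The means were 1456 ± 96.7 and 1217 ± 168 CPM and the log2 difference was -0.26 ± 0.11 (adjusted p 0.447). Rps25, a protein of the small-subunit head that several viral entry sites need to start translation, ranged from 164 to 225 CPM in WT mice with a median of 172. BERKO mice stood at 156, 171, 149, 98.8 and 143 CPM, again with 4 below the WT range, and the log2 difference was -0.35 ± 0.16 (adjusted p 0.478).

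Rps28, near the exit of the messenger, had 373 to 538 CPM in WT mice with a median of 427, and 296, 359, 417, 369 and 397 in BERKO mice. Its log2 difference was -0.28 ± 0.13 (adjusted p 0.497). Rpl39, a small protein that lines the exit tunnel, had 103 to 149 CPM in WT mice with a median of 136, and 90.1, 106, 78.2, 140.2 and 120.4 in BERKO mice. Its log2 difference of -0.28 ± 0.18 (-0.18 without BERKO mouse 4) had an unadjusted p of 0.136 and an adjusted p of 0.612.

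**Figure D3:**
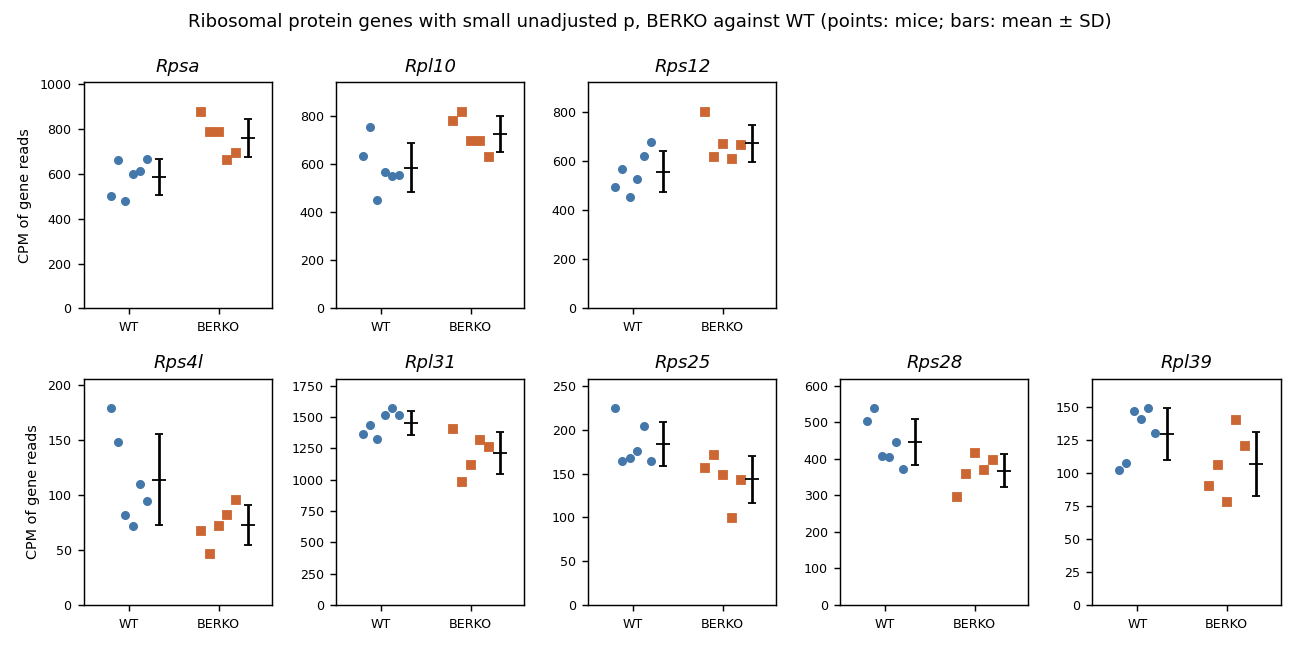
CPM of gene reads in each mouse for the reported genes among the 5 with the smallest unadjusted p in each direction, BERKO against WT, with mean and SD; the upper row is higher and the lower row lower in BERKO mice. The genotypes overlap in all 8 panels, least for Rpsa, Rpl31 and Rps25, where 4 of 5 BERKO mice lie outside the WT range.

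The stalk of the large subunit, which recruits the translation factors that split GTP, is made of Rplp0 and pairs of Rplp1 and Rplp2. Rplp2 was the highest of them, at 1106 to 1485 CPM in WT mice (median 1307) and 1483, 1379, 1413, 1311 and 1506 in BERKO mice. Rplp0 had 459 to 952 CPM in WT mice (median 713) and 814, 750.3, 709, 812 and 850.5 in BERKO mice, and Rplp1 had means of 637 ± 109 and 646 ± 77.4 CPM. Their log2 differences were 0.11 ± 0.11, 0.16 ± 0.14 and 0.02 ± 0.13, with BERKO values inside the WT range for Rplp0 and Rplp1 and 1 above it for Rplp2. Rps6, the target of S6 kinase below mTORC1, had 519 to 1041 CPM in WT mice (median 837) and 795, 692, 878, 728 and 779 in BERKO mice, a log2 difference of -0.09 ± 0.14.

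The rule also takes genes named as like another ribosomal protein gene. Rps27l, which is known as a target of p53, stood at 48.1 ± 18.3 CPM in WT and 36.8 ± 11.2 in BERKO mice, far below Rps27 at 499.6 ± 39.9 and 491 ± 80.3 CPM. The log2 differences were -0.39 ± 0.29 for Rps27l and -0.02 ± 0.13 for Rps27. Rps4l stood far below Rps4x, the X-linked gene of the protein, which had 1580 ± 284 and 1781 ± 74.3 CPM and a log2 difference of 0.17 ± 0.12. Rpl32l had 0 of 19168116 gene reads and was the one gene that was not tested. Its only feature lies in the 3′ UTR, so no feature at its start was counted and its level is not known. For that region, 0 reads allow up to 0.157 CPM over all biopsies together and 12.5 CPM in the shallowest one. Rpl32 itself had 490.0 ± 53.6 and 533 ± 46.9 CPM.

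Each side was then compared between the genotypes on its own. On the right side, none of the 77 genes passed adjustment, where 0.065% of 7696 genes did, and the smallest adjusted p was 0.445 (edgeR). At an unadjusted p under 0.05, 9 were higher (background 4.43%) and 0 lower (background 3.82%); DESeq2 called 0, where it called 0.194% of 9274 genes, with 11 higher (background 3.22%) and 0 lower (background 4.16%) at that level. The log2 change was above 0 for 61 of 77 genes (background 48.7%), with a median of 0.15 against -0.01 over all genes. On the left side none passed either, where 0% of 6616 genes did (smallest adjusted p 0.699), and 0 genes were higher and 1 lower at an unadjusted p under 0.05 (background 3.19% and 3.57%). DESeq2 called 0, where it called 0.015% of 13341 genes, with 1 higher (background 3.01%) and 1 lower (background 2.85%). There the log2 change was above 0 for 28 of 77 genes (background 49.8%), with a median of -0.05 against 0.00 over all genes. The direction on the left was not stable: the median was 0.01 without WT mouse 6 (40 of 77 above 0) and 0.02 without BERKO mouse 6 (41 of 77), and under spike-in scaling it was 0.16 with 67 of 77 above 0 (background 68.5%), where the median of all genes was 0.19.

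Of the 77 genes, 35 had a positive change on the right and a negative one on the left, 2 the reverse, 26 were positive on both sides and 14 negative on both. That split depends on the scaling: with spike-in scaling 6 genes had a positive change on the right and a negative one on the left and 66 were positive on both, and without BERKO mouse 6 the first number was 24 and without WT mouse 6 it was 27. The change was smaller on the left than on the right for 67 of 77 genes, for 68 under spike-in scaling and for 56 and 63 without those mice. Rpl10 was among the 3 with the smallest p on the right. Right biopsies had 356 to 746 CPM in WT mice (median 509.9) and 883, 878, 670.2, 705 and 650.2 in BERKO mice, a log2 difference of 0.50 ± 0.18. Left biopsies had 451 to 889 CPM (median 653) and 679, 700.2, 730.4, 599.6 and 601, a log2 difference of -0.01 ± 0.18. The left value was the higher one in 5 of 6 WT mice and in 1 of 5 BERKO mice, with means of 537 ± 139 (right) and 669 ± 151 CPM (left) in WT and 757 ± 114 and 662 ± 59.3 CPM in BERKO mice (SD).

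Rpl7a, also of the large subunit, was likewise higher on the left in 5 of 6 WT and 1 of 5 BERKO mice. Its right biopsies ranged from 93.0 to 178 CPM in WT mice (median 153) and stood at 229, 228, 160, 203 and 226 in BERKO mice, 4 of them above every WT value, with a log2 difference of 0.56 ± 0.21. Its left biopsies ranged from 139 to 217 CPM (median 198) in WT and stood at 161, 203, 196, 182 and 188 in BERKO mice, with a difference of -0.04 ± 0.21. Rpsa differed by 0.49 ± 0.16 on the right and 0.20 ± 0.16 on the left. Rps4l differed by -0.98 ± 0.42 on the left and -0.51 ± 0.28 on the right, and the left value was -0.63 without WT mouse 2 and -0.22 without the left biopsies of WT mice 1 and 2. Rps25 differed by -0.47 ± 0.24 and -0.29 ± 0.20. Rpl31 differed by -0.36 ± 0.18 and -0.21 ± 0.16, with a left value of -0.22 without WT mouse 4. These 3 genes, which had the smallest p on the left, thus had the same sign on both sides.

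**Figure D4:**
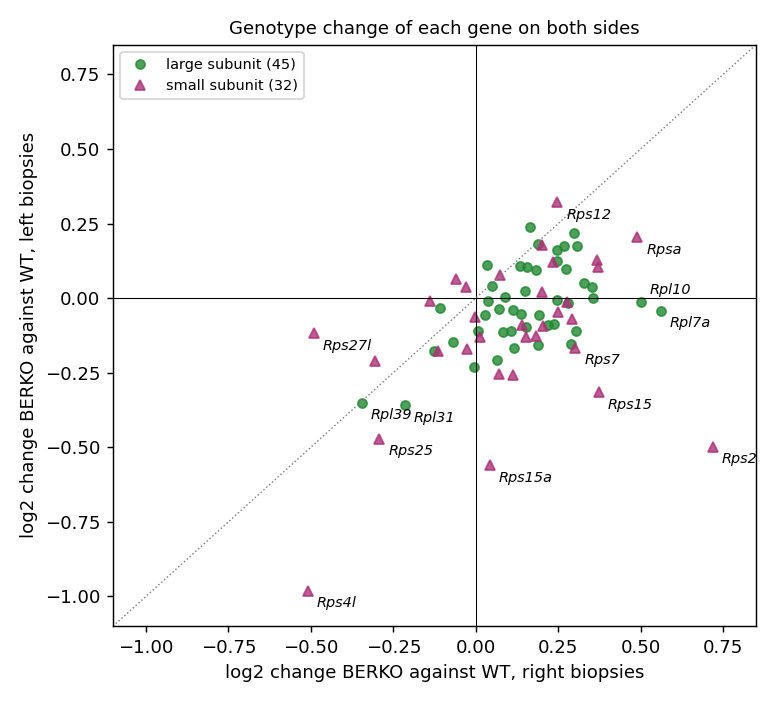
Fitted log2 change of BERKO against WT on the left (vertical) and right (horizontal) for 45 large-subunit (circles) and 32 small-subunit genes (triangles); the dotted line marks equal change. Most points, 67 of 77, lie below that line, with 35 genes positive on the right and negative on the left under TMM scaling and 6 under spike-in scaling.

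Left was compared with right within mice, with the mouse as a block. None of the 77 genes passed adjustment in edgeR, where 0% of 10016 genes did, and the smallest adjusted p was 0.352. At an unadjusted p under 0.05, 9 genes were higher on the left (background 2.09%) and 1 lower (background 3.36%). DESeq2 called 2 of the 69 genes it kept, Rps10 and Rpl37a, both higher on the left, and 2.52% of 1311 genes. Before adjustment it had 14 higher (background 2.14%) and 0 lower (background 3.36%). The log2 change of left against right was above 0 for 61 of 77 genes against 43.7% of all genes, with a median of 0.12 against -0.06. That background depends on the level of the genes. Among 5419 genes with a mean of 20 reads or more, 48.8% were above 0 (median -0.01), and 64 of 77 ribosomal protein genes (median 0.13). Of the 1311 genes that DESeq2 kept, 61.2% were above 0 (median 0.04). Under spike-in scaling the medians of the ribosomal protein genes and of all genes were below 0 (-0.02 and -0.20). With that scaling 32 of 77 genes were above 0 (background 27.8%), and 0 were higher (background 0.22%) and 0 lower (background 3.89%) by unadjusted p. Large-subunit genes had a median of 0.09 and small-subunit genes of 0.13. Cell markers differed between the sides too: excitatory neuron markers were higher on the left in 0 of 5 (median sum 1979 CPM right, 1626 left), astrocyte markers in 5 of 6 (4668 and 5541) and fibroblast markers in 4 of 4 (6283 and 7344). Their part in the side difference was not tested.

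Rps10, at the entry of the messenger and a site of ubiquitin marks on stalled ribosomes, had the smallest p of these genes. Its tract is the longest run of C and T of the small-subunit windows printed above. Right biopsies had 1018 to 1983 CPM in WT mice (median 1408) and 1057, 1693, 1289, 1540.5 and 2156 in BERKO mice. Left biopsies had 1551 to 2816 CPM (median 2083) and 1594, 1837, 2180, 1464 and 1727.5. The left value was the higher one in 6 of 6 WT and 3 of 5 BERKO mice. The log2 difference was 0.41 ± 0.11 (edgeR adjusted p 0.352), and DESeq2 gave 0.42 with an adjusted p of 0.0155.

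Rpl37a had 2294 to 3229 CPM in right WT biopsies (median 2979) and 3240, 2765, 2797, 3069 and 2865 in right BERKO biopsies. Its left biopsies had 2818 to 4867 CPM (median 3663) and 3280, 3056, 3523, 3147 and 3123. Left was higher in 5 of 6 WT and 5 of 5 BERKO mice, by 0.27 ± 0.10 (adjusted p 0.712; 0.0438 in DESeq2). Of the genes lower on the left, Rpl29 differed by -0.34 ± 0.17 and was lower in 3 of 6 WT and 4 of 5 BERKO mice, Rps19, the gene most often mutated in Diamond-Blackfan anemia, by -0.28 ± 0.20 and Rpl23a, where the signal recognition particle docks, by -0.13 ± 0.11 (-0.08 without WT mouse 6 or without BERKO mouse 2).

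The sums show the sides mouse by mouse. Over both subunits, the left biopsy exceeded the right in 6 of 6 WT mice, by 0.01 to 0.45 on the log2 scale (mean 0.23 ± 0.19, SD), and in 2 of 5 BERKO mice, with differences of -0.04, 0.07, 0.26, -0.04 and -0.15 (mean 0.02 ± 0.15). WT right biopsies had 71218 ± 10477 CPM, WT left 83145 ± 8258, BERKO right 79414 ± 3833 and BERKO left 80647 ± 6523. The WT right group was thus the lowest, and it was also the group with the most reads. The largest differences were in WT mice 3 (0.45), 1 (0.40) and 6 (0.35), whose right biopsies held 1530561, 1893400 and 801303 gene reads against 1192106, 714378 and 551905 on the left. WT mouse 2 differed by 0.01 with 1208404 gene reads on the right and 537922 on the left, and WT mouse 4 by 0.04 with 1101909 and 755826. WT mouse 5 differed by 0.14 with 1057945 and 1123242. The part of depth in these differences was not tested.

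**Figure D5:**
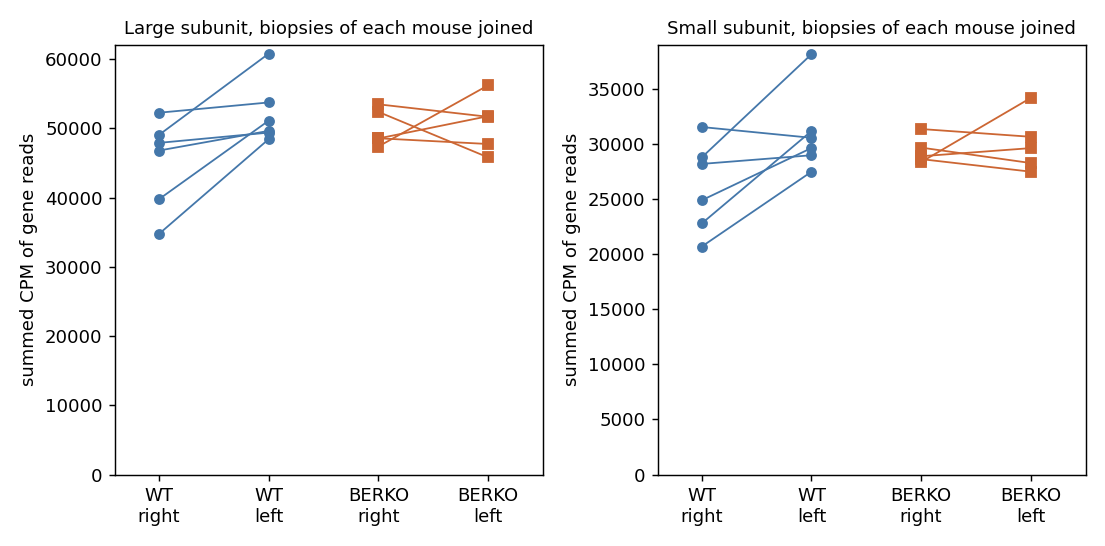
Summed CPM of large-subunit (left panel) and small-subunit genes (right panel) in the right and left biopsy of each mouse, joined by a line; circles are WT and squares BERKO mice. In all 6 WT mice the large-subunit sum is higher on the left, while in BERKO mice the lines run both ways.

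Whether the genotype difference depends on the side was tested in the same model as a difference of differences. None of the 77 genes passed, where 0% of 10016 genes did; every adjusted p was 1 in edgeR, and DESeq2 was not run for this test. At an unadjusted p under 0.05, 0 genes were positive (background 1.79%) and 5 negative (background 1.37%): Rps15, Rps2, Rps7, Rpl10 and Rpl7a. The value was positive for 9 of 77 genes (background 51.6%) and negative for 68, with a median of -0.21 (large subunit -0.17, small subunit -0.23) against 0.03 over all genes. The sign of the median was the same under RLE scaling (-0.20) and spike-in scaling (-0.22). It was also the same without WT mice 1 and 2 (-0.22), which hold the 3 biopsies that lay apart. The difference of differences rests on the same 4 groups of biopsies as the sums above. Most of the gene lists described further below had negative medians too. The median was -0.26 for translation factors and tract messengers (6 of 21 positive) and -0.12 for mitochondrial ribosomal protein genes (31 of 73). It was -0.11 for ribosome biogenesis (10 of 25), -0.14 for ribosomal protein genes outside the rule (1 of 5) and 0.13 for regulators (7 of 13).

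Rps15, a protein of the small-subunit head near the decoding centre, had the smallest p. In right biopsies it ranged from 247 to 398 CPM in WT mice (median 295) and stood at 419.6, 449, 326, 379.6 and 391 in BERKO mice. In left biopsies it ranged from 297 to 421 CPM (median 348) and stood at 304, 420.5, 196, 285 and 214. Left was the higher side in 5 of 6 WT mice and in 0 of 5 BERKO mice. The difference of differences was -0.74 ± 0.26 (unadjusted p 0.00705).

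Rps2 had the largest value, -1.40 ± 0.52, at a low level. Its right biopsies ranged from 19.6 to 91.6 CPM in WT mice (median 46.9) and stood at 68.3, 67.0, 92.2, 89.7 and 95.7 in BERKO mice. Its left biopsies ranged from 13.9 to 107 CPM (median 59.1) and stood at 68.9, 22.9, 15.6, 28.9 and 78.0. With most of its reads in the coding sequence and 28 near copies in the annotation, its level is uncertain. Rps7, which binds Mdm2 when ribosome assembly fails, had right values of 646 to 1176 CPM in WT (median 982) and 1148, 1205, 1129, 1162 and 1279 in BERKO mice. On the left it had 1002 to 1575 CPM (median 1194) and 1174, 1024, 1107, 1083 and 1136. Left was higher in 6 of 6 WT and 1 of 5 BERKO mice, and the difference of differences was -0.48 ± 0.21.

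The deposited features were also compared between the genotypes. Of the 322 features of these genes, 159 were tested and none passed adjustment, where 0.114% of 13128 features did (smallest adjusted p 0.252, edgeR). At an unadjusted p under 0.05, 6 were higher (background 5.63%) and 4 lower (background 5.93%), and 101 had a log2 change above 0 (background 49.7%). The 71 features in 5′ UTRs had a median log2 change of 0.02 with 42 above 0. The 76 features in coding sequence had a median of 0.24 with 53 above 0, beside the higher share of coding sequence and 3′ UTR reads in BERKO biopsies as a whole. The feature with the smallest p lay in the coding sequence of Rpl17, with a log2 change of 0.97 ± 0.32, and held 4.14% of the reads of Rpl17 in WT and 7.86% in BERKO mice. A coding sequence feature of Rpl21 (chromosome 5, position 147646047, mm9) had a change of 1.10 ± 0.44 and held 0.388% and 0.813% of its reads.

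Counting 5′ UTR and upstream features alone, for all genes, kept the numbers of calls and raised the fitted changes of BERKO against WT. The 5′ UTR class already held 95.7% of these genes' reads, so their own counts changed little. Coding sequence and 3′ UTR reads, 13.8% of endogenous reads in WT and 17.3% in BERKO biopsies, left the totals used for scaling. In the fit of single features, the 71 in 5′ UTRs had a median of 0.02. The part of the changed totals in the rise was not tested. Of 76 genes tested none passed, where 0.0728% of 6867 genes did. The log2 change of BERKO against WT was above 0 for 68 of 76 genes, against 49.2% of all genes, with a median of 0.17 against -0.01. By unadjusted p, at the same threshold, 20 were higher (background 4.73%) and 0 lower (background 3.89%). On the right side none of 75 genes passed (0% of 5787), and at that level 25 were higher (background 3.7%) and 0 lower (background 3.39%). On the left 1 was higher (background 3.1%) and 0 lower (background 3.22%). For left against right, the same features lowered the median, to 0.07 in place of 0.12. There 49 of 76 genes were above 0 (background 43.1%), and 3 were higher by unadjusted p in place of 9.

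Genes with and without a tract at an annotated start were set side by side, with no test of their difference. The 16 with reads and a run of 5 or more C or T had a median log2 change of 0.06 for BERKO against WT, 0.09 on the right side alone and 0.12 for left against right, and the 40 with a shorter run or none had 0.12, 0.18 and 0.10. Their median levels were 720.4 CPM (over 17 genes, with Rpl32l at 0) and 733 CPM.

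Levels of the large-subunit genes varied together from biopsy to biopsy. Over the 22 biopsies, as deviations from the means of the 4 groups, the median correlation was 0.31 between pairs of large-subunit genes, 0.15 between small-subunit genes and 0.23 across the subunits. It was 0.07 between these genes and 1198 other genes. Those were taken above a floor near the bottom of these genes' levels, with no upper limit. The median correlation was 0.08 among 73 mitochondrial ribosomal protein genes, which were not matched by level. The biopsies share depth and plate position, so these values are a description. By its median with the other ribosomal protein genes, Rps4x (0.48) was highest, followed by Rpl7 (0.47), Rpl13a, Rplp0 and Rplp2 (0.46 each). Rps27l (-0.14), Rps4l (-0.12) and Rps15a (-0.11), 3 of the genes below 100 CPM, were lowest.

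Genes that make, regulate or share the ribosome were counted from fixed lists, and no list gene passed adjustment for BERKO against WT. Of 5 ribosomal protein genes that the symbol rule does not take, 3 had a positive change. Gnb2l1, which encodes the scaffold protein RACK1 on the small-subunit head, had 639 ± 123 CPM in WT and 837 ± 108 in BERKO mice, a log2 difference of 0.39 ± 0.13 (edgeR adjusted p 0.326), much like Rpsa. Fau, which encodes a ribosomal protein fused to a ubiquitin-like part, differed by 0.12 ± 0.13.

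Of 21 genes for translation factors and other messengers taken from prior knowledge to begin with a tract, 13 were above 0 with a median of 0.05. Whether their annotated starts hold a tract was not looked up. Of 25 ribosome biogenesis genes, 10 were above 0 with a median of -0.07. Polr1a, the catalytic subunit of RNA polymerase I, differed by -1.22 ± 0.34 (adjusted p 0.208) and Ubtf, which binds ribosomal DNA for the same polymerase, by 0.81 ± 0.25 (adjusted p 0.255). Of 13 regulators, 8 were above 0 with a median of 0.08. Larp1, the protein that binds the tract, differed by 0.70 ± 0.25 (adjusted p 0.330), Eif4e, which binds the cap, by -0.35 ± 0.19 and Tsc1, which restrains mTORC1, by -1.12 ± 0.69. The 71 mitochondrial ribosomal protein genes, which serve a separate ribosome, had 27 above 0 and a median of -0.07. Mrpl35, of the mitochondrial large subunit, differed by -0.60 ± 0.18 (adjusted p 0.257).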

How the data were processed

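The table used holds raw read counts of features, as the authors deposited it beside a file that annotates each feature. The submitters' processing notes name build mm9, Bowtie and TopHat2 2.0.12. Read filters and the drawing of features were not given in the sources used here. Per the labels' protocols, 10 ng of RNA per biopsy went through STRT, a 5′-end method with spike-in RNA, in 3 lanes. Since PCR copies are included, the floor given for a count of 0 covers counting error only. Lanes were summed (1 lane for the left biopsy of BERKO mouse 5), as were the features of a symbol; 4.88% of endogenous reads had no single symbol and were left out. Mouse numbers come from the final digit of the column names, so pairing of sides rests on that reading.

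The mouse was the replicate, with sides summed for the genotype. edgeR 4.0.16 (R 4.3.3; quasi-likelihood, robust, two-sided, TMM, default filter) was fitted on all genes, with Benjamini-Hochberg adjustment over them and a threshold of 0.05. Standard errors are the log2 change over the square root of F. The common biological variation was 36.7%. DESeq2 1.42.0 was the alternative, and the code was tested on simulated data. Alternatives were scaling, filters, promoter features, thinning, pairing and leaving out mice or biopsies. The genes, lists and named genes were chosen with earlier results of these data known. Named were the 5 smallest p in each direction for genotype, the 3 smallest for side (each direction), interaction and each side, the 3 highest levels per subunit, the stalk and scaffold genes, and the l-named genes with their namesakes; others were named after their values were seen. Some genes that this rule takes are not reported here, though counts, sums and medians include them. Right and left biopsies of a mouse correlated by -0.10 to 0.34 in their deviations from group means.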

Additional observations from a re-analysis of the deposited data

Results flagged for a closer look

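In 72 groups of mice (each named gene and each summed level in each genotype), a lone high or low mouse was looked for by its gap to the nearest mouse as a share of the range; chance gives this in about 1 in 20 groups, and 2 were found. Rps15 was highest in WT mouse 2, at 401.2 CPM, with a gap of 0.638 of the WT range. Rpl32 was lowest in BERKO mouse 6, at 452.5 CPM, with a gap of 0.720 of the BERKO range.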

How the results depend on the processing

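No ribosomal protein gene passed the threshold in edgeR in any comparison under any scaling, filter, feature set or block, or with any 1 mouse left out (0 to 0 genes). DESeq2 called 2 genes for left against right, Rps10 (0.42) and Rpl37a (0.28). For BERKO against WT, spike-in scaling gave a median log2 change of 0.32 (large subunit 0.32, small subunit 0.28) and summed levels higher by 0.31 (large) and 0.32 (small), where the median of all genes moved by 0.20. The left side alone gave medians of -0.047 (all), -0.033 (large) and -0.091 (small) and a summed large-subunit change of -0.043; its median was 0.16 under spike-in scaling, 0.05 with promoter features alone, 0.01 without WT mouse 6 and 0.02 without BERKO mouse 6. Without the biopsies that lay apart, an alternative chosen after seeing the data for the single sides, the medians were 0.12 (right) and -0.02 (left). The causes were not tested.

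Leaving out 1 mouse at a time gave medians of 0.04 (without WT mouse 3) to 0.13 (without WT mouse 6) for BERKO against WT (large subunit 0.07 to 0.15, small 0.02 to 0.11) and 0.06 (without WT mouse 3) to 0.15 (without WT mouse 2) for left against right (0.03 to 0.14 and 0.09 to 0.16). It gave summed changes of 0.04 to 0.13 (large) and 0.05 to 0.14 (small) and a change in their ratio of -0.02 to 0.00.

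The replicate numbers that WT and BERKO mice share pair nothing (r of -0.03 to 0.06 for deviations of same-numbered mice). With that number as a replicate block, WT mouse 1 was left out, as no BERKO mouse shares its number. The median was then 0.08, and 17 of 10396 genes were called in place of 7 of 9025. None of the 17 was a ribosomal protein gene. Without the mouse block, left against right had a median of 0.11 and 0 calls. Of the right biopsies, 4 of 11 correlated best with the left of their own mouse. The low levels of Rps2, Rps27l, Rps4l and Rps15a limit what this depth can show for them.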
